A study of Mus musculus with 12 samples.

Results

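A set of 10 genes of the extracellular matrix and of the cells that make it was chosen by name, with earlier results of these data known: fibronectin (Fn1), fibrillin 1 (Fbn1), elastin (Eln), periostin (Postn), Sparc, decorin (Dcn), lumican (Lum), the thrombospondins Thbs1 and Thbs2, and the PDGF receptor Pdgfra. Of these 10 genes, 9 were measured among 18820 genes in all, each by 1 probe set whose annotation held that symbol alone; Fbn1 had no such probe set and was not analysed here. Expression had been measured in hind limb skeletal muscle and in heart of C57BL/6 mice 11 days old, either wild type (Tk2+/+) or lacking thymidine kinase 2 in the whole body (Tk2-/-). Each of the 4 groups held 3 arrays, and the study's methods name 3 mice of each genotype. Thymidine kinase 2 is the mitochondrial enzyme that phosphorylates thymidine and deoxycytidine for mtDNA synthesis, and the comparisons asked how its loss altered gene expression in each tissue. Signals are linear intensities on the scale of the deposited table, and whole tissue was used, so that fewer cells of a type and less RNA per cell cannot be told apart.

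The matrix between muscle cells is made mainly by fibroblasts, with smaller parts from vessel wall cells and the muscle cells themselves. Fibronectin and periostin bind integrins and other matrix proteins and guide the assembly of new matrix. Elastin gives elastic recoil on a scaffold of fibrillin, and the small leucine-rich proteoglycans decorin and lumican bind collagen fibrils and set their spacing. Sparc and the thrombospondins are matricellular proteins, which act on cells and growth factors more than they bear load, and Pdgfra is a receptor by which mesenchymal cells answer platelet-derived growth factor. In growing muscle and heart around birth these genes are strongly used, and in adult tissue they are known for their rise in wound healing and fibrosis.

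Promoter sequence from RefSeq was at hand for 5 of the 10 genes, Fbn1 and Pdgfra among them. The 150 bases before the start are shown for Postn and Sparc, which were lower in Tk2-/- tissue in both organs, and for Thbs2, which was higher in Tk2-/- heart, all on build GRCm38.p6 and written 5′ to 3′ on the strand of the gene. The Postn sequence precedes the second of its listed starts (chr3:54360957-54361106, plus strand), that of Sparc lies at chr11:55420081-55420230 on the minus strand, and that of Thbs2 at chr17:14694263-14694412 on the minus strand. Capitals mark matches to the motifs searched.
Postn: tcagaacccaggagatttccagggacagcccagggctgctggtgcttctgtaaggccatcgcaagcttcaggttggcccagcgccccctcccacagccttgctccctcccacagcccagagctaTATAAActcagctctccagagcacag
Sparc: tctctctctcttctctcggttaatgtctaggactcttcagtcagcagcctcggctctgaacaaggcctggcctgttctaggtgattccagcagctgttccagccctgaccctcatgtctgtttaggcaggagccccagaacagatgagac
Thbs2: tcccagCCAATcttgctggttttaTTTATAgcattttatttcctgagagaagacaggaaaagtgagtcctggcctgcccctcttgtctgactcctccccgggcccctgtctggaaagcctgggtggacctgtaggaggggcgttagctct
Motifs were searched on both strands over 250 bases before each start, and none of the motif matches reported overlapped another. The TATA box (TATAAA) was found in Postn 26 to 21 bases before the start and in Thbs2, on the reverse strand, 126 to 121 bases before it, and 12.4% of all 32851 promoters held it. The CCAAT box (CCAAT) was found in Thbs2 at 144 to 140 and at 186 to 182 bases before the start, the latter outside the bases shown, and 33.8% of promoters held it. The GC box (GGGCGG, held by 32.7% of promoters), the AP-1 site (TGANTCA, 6.75%) and the glucocorticoid response element (GNACA and TGTNC with 3 bases between them, 0.387%) had no match in these 3 windows, and none of the 5 motifs was found in Sparc. These letters are a description of the windows.

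The heart arrays of the Tk2-/- mice were dimmer over the whole table, which touches every comparison that involves them. Mean signal per array was 146.8 to 168 in Tk2-/- heart, against 227 to 243 in Tk2+/+ heart, 202 to 252 in Tk2+/+ muscle and 225 to 246 in Tk2-/- muscle. Taken over all genes, the median log2 fold change between genotypes came to -0.28 for heart and -0.02 for muscle, and over the 4051 genes with a mean signal above 256, which include the 9 genes, it was -0.68 and 0.09. Heart values of the genes named are therefore given also after quantile normalization within each tissue, which brings the arrays of a tissue to the same distribution. Whether the dimmer signal came from the tissue or from the handling of the arrays was not tested. The labels of tissue matched their markers, with a summed signal of 12 skeletal fibre genes of 57339 to 76606 in Tk2+/+ muscle and 7547 to 7794 in Tk2+/+ heart, and of 11 cardiomyocyte genes of 1417 to 1939 and 32029 to 46891. Tk2 itself was lower in Tk2-/- heart (36.0 ± 8.92 against 75.2 ± 5.98, SD, log2 fold change -0.82, adjusted p = 7.62e-05, or -0.38 with 0.0328 after quantile normalization) but did not pass the test in muscle (52.5 ± 10.8 against 64.8 ± 3.17, adjusted p = 0.209), and whether its probes lie in the part of the gene that was disrupted was not given in the sources. By Xist signal, 1, 2, 2 and 3 of the 3 mice were female in Tk2+/+ muscle, Tk2-/- muscle, Tk2+/+ heart and Tk2-/- heart, so the muscle and heart arrays of a genotype were not all of the same 3 mice. Arrays of a group also differed in markers of tissue parts. The atrial gene Myl7 read 13.3, 580.2 and 2641 in Tk2+/+ heart and 1966, 144 and 1882 in Tk2-/- heart, and the smooth muscle gene Cnn1 read 179.6 in Tk2+/+ heart replicate 3 and 40.3 to 46.1 in the other heart arrays. In Tk2+/+ muscle, replicate 1 was high in Ptprc (419 against 104 and 98.2) and Laptm5 (322 against 165 and 149), of the macrophage list. The red cell gene Slc4a1 read 254 in Tk2-/- muscle replicate 2 against 36.9 and 78.0. In Tk2-/- muscle, replicate 1 alone was high in the mesothelial markers Upk3b (120.6 against 27.0 and 10.4), Msln (59.1 against 14.2 and 12.5) and Wt1 (46.2 against 5.31 and 11.2). Without that array the muscle calls of Fn1, Postn, Lum, Sparc and Thbs1 still passed and that of Pdgfra was lost, and without Tk2+/+ heart replicate 3 that of Dcn was lost in heart. The part of these markers in the results was not tested.

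In Tk2-/- skeletal muscle, Fn1, Postn, Lum and Sparc were lower and Thbs1 and Pdgfra higher than in Tk2+/+ muscle, while Eln, Dcn and Thbs2 did not pass the test. In heart, 8 of the 9 genes were lower and Thbs2 alone was higher. Periostin had the largest difference of the 9 genes, with Tk2-/- heart at 11.4% of the Tk2+/+ mean. Thbs1 moved in opposite directions, to 229% of the Tk2+/+ mean in muscle and 34.1% in heart. The test was limma's moderated test on log2(signal + 16), two-sided, with p-values adjusted over 18820 genes and a threshold of 0.05, and log2 fold changes are on this scale. Among all genes tested, 10.9% were lower and 11.6% higher in Tk2-/- muscle, against 4 and 2 of the 9 genes. In heart 49% of all genes were lower and 1.99% higher, beside 8 and 1 of the 9 genes. These shares include dim genes, whereas the 9 genes were all among the 4051 with a mean signal above 256. For those bright genes the heart log2 fold change had a median of -0.68, a lower quartile of -0.92 and an upper quartile of -0.45. The share of bright genes that passed was not counted.

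**Figure D1:**
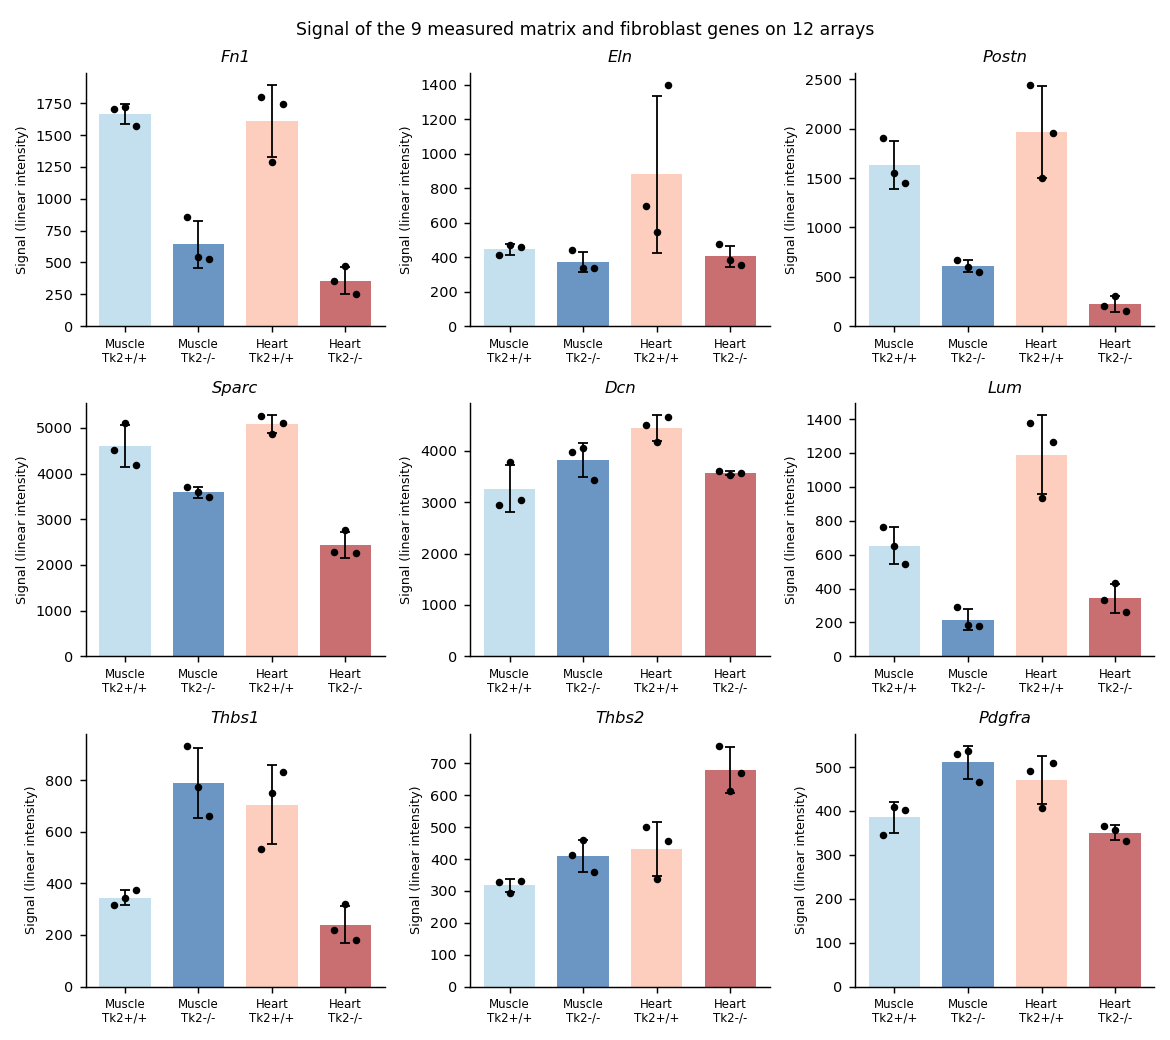
Signal (linear intensity, axis from 0) of the 9 measured genes in the 4 groups. Points are the 3 arrays of a group, bars the mean and error bars the SD. Fn1, Postn and Lum are lower in Tk2-/- tissue in both organs with no overlap of arrays, and Thbs1 is higher in Tk2-/- muscle and lower in Tk2-/- heart.

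Fibronectin, the glycoprotein through which cells grip and assemble matrix, gave signals of 1702, 1717 and 1572 in Tk2+/+ muscle, 854, 546 and 527 in Tk2-/- muscle, 1801, 1290.2 and 1744 in Tk2+/+ heart, and 355, 469 and 251 in Tk2-/- heart. Every Tk2-/- array lay below every Tk2+/+ array in each tissue. The log2 fold change was -1.38 in muscle (SE 0.21, adjusted p = 0.000186) and -2.15 in heart (SE 0.21, adjusted p = 1.79e-06), and -1.54 and -1.46 after quantile normalization. On the deposited scale the fall was larger in heart (difference 0.76, adjusted p = 0.046), and the difference was -0.08 after the normalization. That call was lost without any 1 of the 3 Tk2+/+ muscle arrays, Tk2-/- muscle replicate 1, Tk2+/+ heart replicate 1 or 3, or Tk2-/- heart replicate 1 or 3 (adjusted p of 0.0619 to 0.133). It was also lost with offsets of 1 and 64 (0.0718 and 0.0927), with a trended robust prior (0.0587) and with the replicate number as a block (0.0682). Tk2+/+ muscle and Tk2+/+ heart did not pass the test between them (0.06, adjusted p = 0.825).

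Periostin, which promotes the crosslinking of collagen and is made by activated and developing fibroblasts, read 1909.7, 1551 and 1448 in Tk2+/+ muscle and 670.1, 597 and 550.2 in Tk2-/- muscle. In heart it read 2440.3, 1504 and 1959 in Tk2+/+ mice and 208, 308.5 and 155 in Tk2-/- mice. The genotypes were far apart in each tissue, and the lowest arrays of the 12 were those of Tk2-/- heart. Its log2 fold change was -1.40 in muscle (SE 0.20, adjusted p = 0.000157) and -3.07 in heart (SE 0.20, adjusted p = 1.70e-07), the latter the 8th lowest of all 18820 genes. After quantile normalization it was -1.57 and -2.39, both past the threshold. The fall was larger in heart by 1.67 (adjusted p = 0.000441), a difference of 0.82 that no longer passed after normalization (adjusted p = 0.0787). Between Tk2+/+ tissues its signal did not pass the test (-0.25, adjusted p = 0.33), whereas Tk2-/- muscle was above Tk2-/- heart (1.42, adjusted p = 2.7e-05).

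Lumican, a proteoglycan that binds collagen fibrils, gave 762, 654 and 547 in Tk2+/+ muscle and 289.9, 183 and 177 in Tk2-/- muscle. The heart values were 1376, 931 and 1263 in Tk2+/+ mice and 332, 435 and 262 in Tk2-/- mice. Again no arrays of the genotypes overlapped, and Tk2+/+ heart was the highest group. Lum had the largest fall of the 9 genes in muscle, with a log2 fold change of -1.55 (SE 0.21, adjusted p = 6.8e-05), and fell by 1.76 on the log2 scale in heart (adjusted p = 7.08e-06). The heart value after quantile normalization was -1.06 and passed. The 2 tissues did not pass the test of a difference in this effect (0.21, adjusted p = 0.637, or -0.57 and 0.178 after normalization). In both genotypes Lum was higher in heart than in muscle, by 0.84 (adjusted p = 0.00388) and 0.63 (adjusted p = 0.0146).

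Decorin, the relative of lumican that also binds TGF-beta, took another course. Its signals were 2948, 3792 and 3048 in Tk2+/+ muscle, 3974, 4055 and 3437 in Tk2-/- muscle, 4503, 4169 and 4654 in Tk2+/+ heart, and 3610.5, 3533 and 3562 in Tk2-/- heart. The muscle arrays of the genotypes overlapped, and those of heart did not. In muscle Dcn did not pass (0.23, SE 0.11, adjusted p = 0.158), and in heart it was lower on the deposited scale (-0.31, adjusted p = 0.0249). The heart difference turned to 0.16 and lost the threshold after quantile normalization (adjusted p = 0.126). The heart call was also lost when any Tk2-/- heart array or Tk2+/+ heart replicate 1 or 3 was left out (adjusted p of 0.0532 to 0.0795). An offset of 1 lost it as well (0.063).

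Sparc, which binds collagen and governs its deposition, read 4514, 5106 and 4199 in Tk2+/+ muscle and 3707, 3588 and 3478 in Tk2-/- muscle. It read 5255, 4868 and 5108 in Tk2+/+ heart and 2277, 2766 and 2261 in Tk2-/- heart. All arrays of Tk2-/- tissue were lower, narrowly in muscle and clearly in heart. Sparc was at 78.0% of the Tk2+/+ mean in muscle (log2 fold change -0.35, adjusted p = 0.0244) and at 47.9% in heart (-1.06, adjusted p = 2.23e-06). After quantile normalization the fall was of like size, at -0.54 in muscle and -0.55 in heart, and passed in each. The muscle call was lost when Tk2+/+ replicate 1 or 2 or Tk2-/- replicate 2 or 3 was left out (adjusted p of 0.0574 to 0.0958). It was also lost with an offset of 1 (0.078).

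Elastin, the core of the elastic fibre, gave 410.2, 471 and 456 in Tk2+/+ muscle, 441, 335 and 339 in Tk2-/- muscle, 694, 549 and 1397 in Tk2+/+ heart, and 475, 383 and 357 in Tk2-/- heart. The Tk2+/+ heart arrays were widely spread, with a coefficient of variation of 51.6%, the largest of any of the 9 genes in any group. Muscle did not pass (-0.26, SE 0.24, adjusted p = 0.536). Heart passed on the deposited scale (-0.98, adjusted p = 0.00253) and not after quantile normalization (-0.30, adjusted p = 0.375). In Tk2+/+ mice Eln was higher in heart than in muscle (muscle minus heart -0.84, adjusted p = 0.00977). Both values rested in part on Tk2+/+ heart replicate 3, the array with the signal of 1397, and without it they were -0.60 for heart (adjusted p = 0.00472) and -0.46 between the Tk2+/+ tissues (adjusted p = 0.0318). The genotype effect on Eln differed between tissues (0.72, adjusted p = 0.0459) only in a fit, chosen after seeing the data, that paired muscle and heart arrays by number, and without Tk2+/+ heart replicate 2 (0.999, adjusted p = 0.0149).

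**Figure D2:**
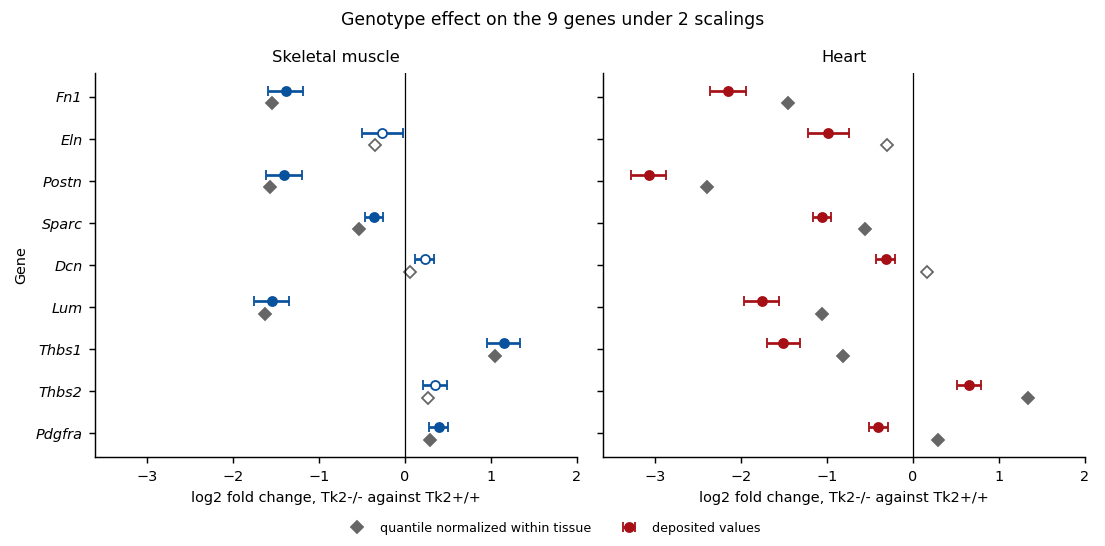
Log2 fold change of Tk2-/- against Tk2+/+ for the 9 genes in skeletal muscle (left) and heart (right). Circles are the deposited values with their SE, diamonds the values after quantile normalization within the tissue, and filled symbols passed an adjusted p of 0.05. In heart the diamonds lie to the right of the circles, and those of Dcn and Pdgfra lie on the other side of 0.

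The thrombospondins are secreted by several cell types, bind CD36, CD47 and integrins, and restrain vessel growth, and Thbs1 also activates latent TGF-beta. Thbs1 gave 316, 342 and 375 in Tk2+/+ muscle and 933, 771 and 662 in Tk2-/- muscle. Its heart signals were 534, 749 and 829 in Tk2+/+ mice and 220.1, 320.5 and 179 in Tk2-/- mice. Every Tk2-/- array was above the Tk2+/+ arrays in muscle and below them in heart. The log2 fold change was 1.15 in muscle (SE 0.19, adjusted p = 0.00047) and -1.51 in heart (SE 0.19, adjusted p = 1.28e-05). Quantile normalization left 1.05 and -0.81, both past the threshold. The effects differed between tissues by 2.66 (adjusted p = 1.9e-05), or by 1.86 after normalization (adjusted p = 0.00111). The order of the tissues turned with genotype, since Thbs1 was higher in heart in Tk2+/+ mice (by 0.98, adjusted p = 0.00081) and higher in muscle in Tk2-/- mice (by 1.68, adjusted p = 3e-06).

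Thbs2 gave 328, 293 and 329.97 in Tk2+/+ muscle, 412, 459 and 358 in Tk2-/- muscle, 501, 336 and 456 in Tk2+/+ heart, and 756, 612 and 669.8 in Tk2-/- heart. The Tk2-/- arrays were the higher ones in each tissue with no overlap. In heart, where far more genes were lower than higher, Thbs2 was higher by 0.65 (SE 0.14, adjusted p = 0.000915), and by 1.34 after quantile normalization. The muscle value of 0.35 missed the threshold (SE 0.14, adjusted p = 0.0912). A larger rise in heart did not pass on the deposited scale (muscle minus heart -0.30, adjusted p = 0.257) and passed after normalization (-1.07, adjusted p = 0.0056). Thbs2 was the gene of the 9 with the highest group in Tk2-/- heart.

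Pdgfra, a receptor that marks fibroblasts and their progenitors in muscle and heart, gave 344, 409.9 and 402 in Tk2+/+ muscle, 529, 536 and 467 in Tk2-/- muscle, 492, 407 and 509.7 in Tk2+/+ heart, and 365, 356 and 331 in Tk2-/- heart. The Tk2-/- arrays were all above the others in muscle and all below in heart. The log2 fold change was 0.39 in muscle (SE 0.11, adjusted p = 0.017, and 0.29 with 0.0312 after quantile normalization). In heart it was -0.40 on the deposited scale (adjusted p = 0.00561) and 0.30 after the normalization (adjusted p = 0.0263), so its direction in heart rested on the scaling. The effect differed between tissues on the deposited scale (0.79, adjusted p = 0.000889) and was -0.0077 after normalization. The muscle call was lost without Tk2+/+ replicate 1 (adjusted p = 0.0917) and without Tk2-/- replicate 1 or 2 (0.056 and 0.076). It was also lost with an offset of 1 (0.0539).

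Counted over the 9 genes, the median log2 fold change was -0.26 in muscle and -1.06 in heart. Over all genes it was -0.02 and -0.28, and over the 4051 bright genes, which include the 9, it was 0.09 and -0.68. After quantile normalization the heart median of the 9 genes was -0.55. Of them 5 (Fn1, Postn, Sparc, Lum and Thbs1) were lower and 2 (Thbs2 and Pdgfra) higher, where 16% and 16.1% of all genes were. Arrays of Tk2-/- mice all lay below those of Tk2+/+ mice for 4 of the 9 genes in muscle and 8 in heart. The shares over all genes, dim ones included, were 18.8% and 53.3%. Set against the median of the 4051 bright genes, the heart values were -2.39 for Postn, -1.47 for Fn1, -1.08 for Lum, -0.83 for Thbs1, -0.38 for Sparc and -0.30 for Eln, and 0.28 for Pdgfra, 0.37 for Dcn and 1.33 for Thbs2.

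**Figure D3:**
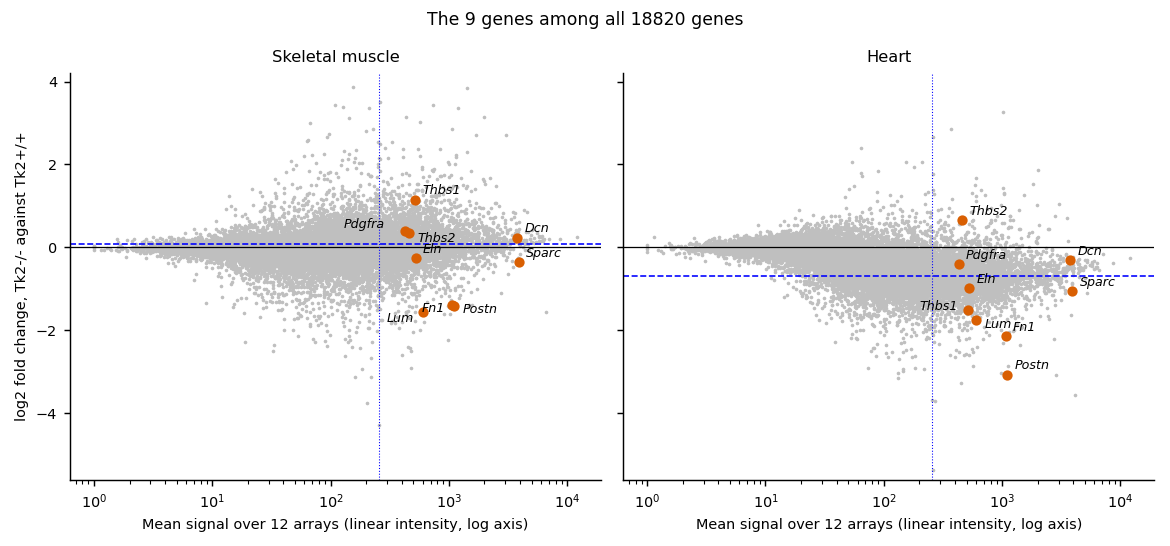
Log2 fold change of Tk2-/- against Tk2+/+ against the mean signal over the 12 arrays (log axis) for all 18820 genes (grey) with the 9 genes in orange, in skeletal muscle (left) and heart (right). The dashed line is the median of the genes to the right of the dotted line at a signal of 256, which is 0.09 in muscle and -0.68 in heart, and Postn and Thbs2 lie farthest below and above it among the 9 genes in heart.

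The genotype effect differed between the tissues for 6 of the 9 genes (Fn1, Postn, Sparc, Dcn, Thbs1 and Pdgfra), each with the value more positive in muscle. Of all genes 41.3% were more positive in muscle and 1.39% more positive in heart. Over the 4051 bright genes, which include the 9, the difference had a median of 0.79 and a lower quartile of 0.59. The values of Pdgfra (0.7934), Fn1 (0.7628), Sparc (0.7076) and Dcn (0.5458) were not above that median. Those of Thbs1 (2.657) and Postn (1.666) were above it. After quantile normalization 2 of the 9 genes passed, Thbs1 more positive in muscle and Thbs2 more positive in heart, against 10.2% of all genes in either direction.

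Between the Tk2+/+ tissues, 5 genes (Eln, Dcn, Lum, Thbs1 and Thbs2) were higher in heart, where 18.4% of all genes were and 30.6% were higher in muscle. The 4 others did not pass, with log2 differences (muscle minus heart) from -0.27 for Pdgfra (adjusted p = 0.0511) to 0.06 for Fn1. The call of Thbs2 was lost without Tk2+/+ muscle replicate 2 or Tk2+/+ heart replicate 1 or 3 (adjusted p of 0.0795 to 0.119), and also with quantile normalization over all 12 arrays (0.136), upper-quartile scaling (0.115) or sex as a covariate (0.0528). Between the Tk2-/- tissues, 5 genes (Fn1, Postn, Sparc, Thbs1 and Pdgfra) were higher in muscle and 2 (Lum and Thbs2) in heart, against 59.5% and 4.55% of all genes. The call of Lum was lost without Tk2-/- muscle replicate 2 or 3 or Tk2-/- heart replicate 2 (adjusted p of 0.0575 to 0.0729). After quantile normalization over all 12 arrays, Postn and Thbs1 were higher in Tk2-/- muscle, and Eln, Dcn, Lum and Thbs2 in Tk2-/- heart. The shares of 59.5% and 4.55% are for the deposited scale, and no share over all genes was at hand for this normalization. In the order of the 4 groups, the Tk2+/+ tissues held the top 2 places for Fn1, Eln, Postn, Sparc and Lum. For Eln, Tk2+/+ muscle did not pass against Tk2-/- heart next to it (gap of 0.14, adjusted p = 0.608). Tk2-/- muscle was the highest group for Thbs1 and Pdgfra, in each case without passing against Tk2+/+ heart next to it (gaps of 0.17 and 0.12, adjusted p of 0.466 and 0.364). For Dcn no neighbours in the order passed.

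Other genes of the elastic fibre, 16 measured, were lower in 8 cases and higher in 1 in Tk2-/- muscle (median -0.56), and lower in 13 cases in heart (median -0.95). After quantile normalization 7 were lower and 1 higher in heart. The crosslinking enzyme Loxl2 went from 333 ± 37.1 to 164 ± 15.8 (SD) in muscle (-0.95) and from 477 ± 63.0 to 108 ± 27.0 in heart (-2.01, or -1.34 after quantile normalization). Lox, an enzyme of the same family, was the gene that rose in muscle, from 270.2 ± 25.2 to 637 ± 18.4 (1.19, adjusted p = 0.000102). The microfibril protein Mfap5 had a log2 fold change of -1.60 in heart and Emilin2, a protein of the elastic fibre surface, -1.65 (-0.91 and -0.97 after quantile normalization), and the fetal fibrillin Fbn2 had -0.89 in muscle.

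Among 10 other small leucine-rich proteoglycans, 1 was lower and 1 higher in muscle (median -0.02), and 5 were lower and 1 higher in heart (median -0.86, or 4 and 1 after quantile normalization). Biglycan (Bgn), the closest relative of decorin, was lower in both tissues (-0.48 and -1.23, the latter -0.61 after quantile normalization). Osteoglycin (Ogn) went from 1483 ± 93.4 to 493 ± 178 in heart (-1.61), and asporin (Aspn) fell by 1.19, values that became -0.94 and -0.51 after quantile normalization. Osteomodulin (Omd) was the gene that rose in each tissue, from 31.8 ± 4.11 to 76.1 ± 25.2 in muscle (0.91) and by 0.72 on the log2 scale in heart (1.17 after quantile normalization).

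Of 21 other matricellular and adhesive matrix genes, 7 were lower and 2 higher in muscle (median -0.12), and 15 lower and 2 higher in heart (median -0.92, or 11 and 5 after quantile normalization). Follistatin-like 1 (Fstl1), a secreted relative of Sparc, went from 1686 ± 102 to 719.8 ± 109 in muscle (-1.22) and from 2016 ± 283 to 492 ± 106 in heart (-2.01, or -1.36 after quantile normalization). Spock2, another gene with a Sparc-type domain, rose in both, from 68.9 ± 13.0 to 280.2 ± 53.1 in muscle (1.80) and from 69.5 ± 23.7 to 307 ± 62.2 in heart (1.94, or 2.54). Tenascin C (Tnc), a protein of developing and healing matrix, fell by 2.01 in heart (-1.68 after quantile normalization), and Ccn1, a ligand of integrins, rose by 1.06 in muscle.

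On the side of the receptors for these proteins, 16 integrins, syndecans, discoidin receptors and thrombospondin receptors had 4 lower and 2 higher in muscle (median -0.06), and 14 lower and 1 higher in heart (median -0.68, or 6 and 3 after quantile normalization). Cd36, a receptor of thrombospondins and a fatty acid carrier, went from 2144 ± 256 to 3558 ± 42.3 in muscle (0.73). Itga4 and Sdc2 fell by 0.87 and 0.73 in muscle. The collagen receptor Ddr2 fell by 1.43 in heart, and the integrin Itga8 and the syndecan Sdc3 each by 1.33, values that became -0.77, -0.75 and -0.64 after quantile normalization and still passed.

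Of 6 other PDGF genes, ligands and receptors, 2 were lower in muscle (Pdgfb, -0.51, and Pdgfrl, -0.58) and 6 in heart, or 2 lower and 1 higher there after quantile normalization. In heart the ligand Pdgfd fell by 0.90 and Pdgfb by 1.08. Of 8 genes of TGF-beta signalling, the pathway that drives matrix synthesis in fibroblasts, 2 were lower and 2 higher in muscle, and 7 were lower in heart, or 3 lower and 1 higher after quantile normalization. The ligand Tgfb2 was lower in muscle and in heart (-0.89 and -1.08), whereas the receptors Tgfbr1 and Tgfbr3 were higher in muscle (0.83 and 0.95). Skil, an inhibitor of SMAD signalling, fell by 1.42 in heart and Tgfb3 by 1.06. After quantile normalization the heart values were -0.38 for Pdgfb, -0.41 for Tgfb2 and -0.73 for Skil, which passed, and -0.25 for Pdgfd and -0.36 for Tgfb3, which did not (adjusted p = 0.24 and 0.0539).

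**Figure D4:**
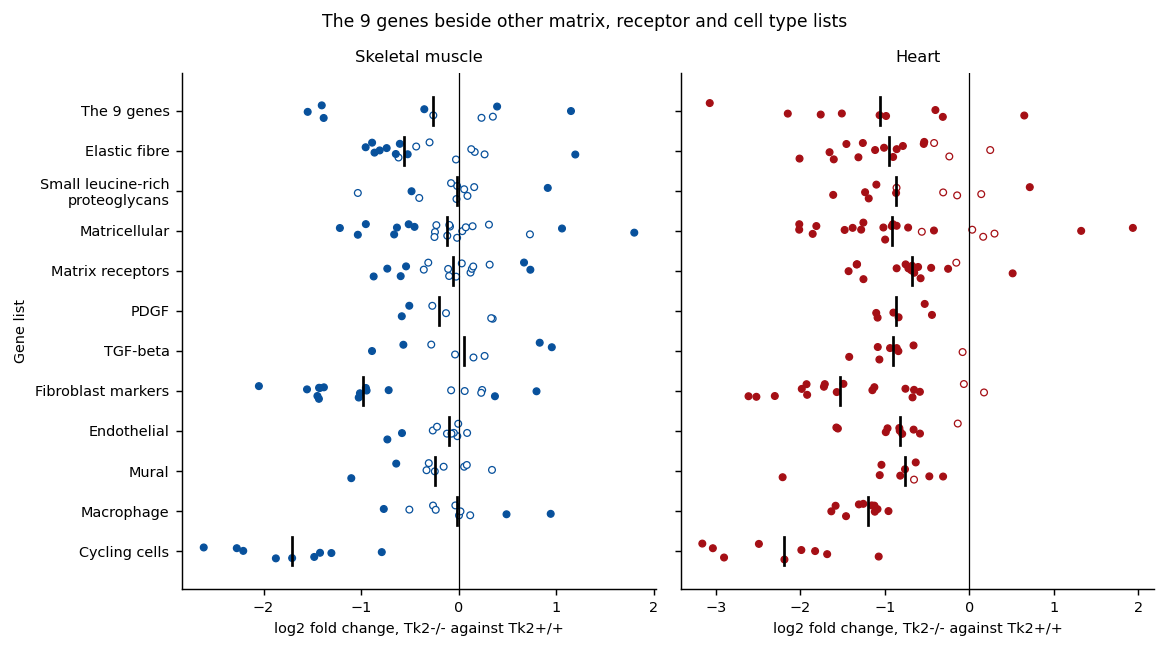
Log2 fold change of Tk2-/- against Tk2+/+ in skeletal muscle (left) and heart (right), each point a gene of the list named at the left and each black bar the list's median. Filled points passed an adjusted p of 0.05. Among the lists shown, fibroblast markers and cycling cell genes have the lowest medians, of -0.98 and -1.71 in muscle and -1.53 and -2.19 in heart.

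Markers of fibroblasts were lower in the same comparisons. Of 18 measured, 12 were lower and 2 higher in Tk2-/- muscle (median -0.98), and 16 were lower in heart (median -1.53, or 12 lower and 1 higher after quantile normalization). Their summed signal was 14697 to 16944 in Tk2+/+ muscle and 7315 to 9045 in Tk2-/- muscle, and 8946 to 11848 and 3225 to 4130 in heart. The largest parts of the sum in Tk2+/+ muscle were the collagen genes Col1a1, Col1a2 and Col3a1, with means of 3310, 3181 and 2036. These are themselves matrix genes, so the sum is not a count of cells. The surface marker Thy1 had a log2 fold change of -2.05 in muscle, Col6a3, a chain of collagen VI, -1.56 and -2.52 in muscle and heart, and Pi16, a marker of progenitor-like fibroblasts, -2.61 in heart (-1.90 and -2.07 in heart after quantile normalization). The markers Mmp2 and Scara5 were higher in muscle (0.37 and 0.80), and Mmp2 no longer passed after quantile normalization (0.18, adjusted p = 0.118). These markers were named after their values were seen. Genes of cycling cells, 9 measured, were all lower in both tissues, with summed signals of 804 to 1573 against 121 to 348 in muscle and 782 to 1801 against 84.3 to 102 in heart. The part of either list in the values of the 9 genes was not tested.

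Markers of other cells of the tissue were counted in the same way. Of 10 endothelial genes 2 were lower in muscle and 9 in heart (5 lower and 1 higher after quantile normalization), and of 9 genes of vessel wall smooth muscle and pericytes 2 and 8 (3 lower and 1 higher after it), with Acta2 at -1.10 and -2.21 (-1.64 in heart after it). Of 10 macrophage genes 1 was lower and 2 higher in muscle, and 10 were lower in heart, 9 of them after normalization. Adipocyte genes, 5 measured, were higher in 4 cases and lower in 1 in muscle, with a summed signal of 417 to 814 in Tk2+/+ and 1058 to 2128 in Tk2-/- mice, and at 28.6 to 67.4 in the heart arrays. Of the 12 skeletal fibre genes 8 were lower in heart (5 after quantile normalization), and their median in muscle was 0.14. In heart 5 of these 12 genes were dim, with a mean below 32. Ckm and Acta1 were the brightest of the 12 in Tk2+/+ heart, with means of 5877 and 1404. Of the 11 cardiomyocyte genes 5 were lower in heart (1 after quantile normalization), and 1 was lower and 1 higher in muscle. Both measured red cell genes were lower in heart, Slc4a1 at -2.52 and Alas2 at -1.22 (-2.07 and -0.55 after quantile normalization, the latter not passing). Of 8 tendon and cartilage genes, 2 were lower in muscle (Tnmd, -1.09, and Scx, -0.63) and 1 in heart (Sox9, -1.22, or 1 lower and 2 higher after quantile normalization). Of 5 mesothelial genes, Wt1 was lower in heart (-0.79, and -0.18 with adjusted p = 0.669 after quantile normalization), and of 3 Schwann cell genes, Cdh19 was higher in muscle (0.91). The part of these lists in the values of the 9 genes was not tested.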

How the data were processed

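Total RNA from hind limb skeletal muscle and heart was extracted (RNeasy), labelled (Ambion WT Expression kit) and hybridised to 12 Affymetrix Mouse Gene 1.1 ST arrays. The deposited table holds 1 linear intensity per probe set and array. The submitters' processing notes name Expression Console and PLIER, with no versions, and the study names a normalization and a t-test without further detail. The deposited arrays differ in their distributions.

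Of 35556 probe sets, 21218 carried 1 symbol, 1881 several and 12457 none; 21185 of the first were in a RefSeq gene table of GRCm38.p6, and 0 symbols were changed. The brightest probe set was kept per gene, which left 18820 genes with no filter on dim ones. Values were tested as log2(intensity + 16) with limma (version 3.58.1, R 4.3.3; 4 group means, 8 residual degrees of freedom), with Benjamini-Hochberg adjustment over all genes. The number of arrays limits the precision. Samples were grouped by GEO's titles, which call the replicates biological. Deviations of same-numbered arrays correlated at -0.38 to 0.18 between genotypes within a tissue. Between genotypes across tissues, which cannot be the same mouse, they correlated at -0.025 to 0.324. Between Tk2+/+ muscle and heart the values were 0.105, 0.266 and 0.343 (number 1 differing in sex by Xist). Those between Tk2-/- muscle and heart were -0.17 to -0.13, so no block was used in the main fit. A block pairing muscle and heart arrays by number was added after seeing the data. The fit was tested on simulated data with known changes in 200 genes. Of log2 changes of 0.5, 39.3% were recovered in muscle and 27.9% in heart, and of changes of 1, 90.4% and 98.5%. False calls were 15 among 174 calls in muscle and 0 among 150 in heart.

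The genes and lists were chosen with earlier results of these data known. Named were all 9 measured genes, and per list up to 3 genes (2 for other cell types) with the largest change past the threshold in each tissue. Outside this rule, Tk2 and Xist were named as checks. Myl7, Cnn1, Upk3b, Msln, Fmod, Ptprc and, in muscle, Wt1, Laptm5 and Slc4a1 were named after their spread over arrays was seen. Mmp2, Scara5 and the heart value of Omd were named for their direction, and Col1a1, Col1a2, Col3a1, Ckm and Acta1 for their signal, also after the values were seen. Alternatives covered scaling, offset, filter, probe set choice, model, sex, the methods' t-test and leaving out each array. Promoters were searched as RefSeq gives them. Figures were drawn with matplotlib 3.10.9.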

Additional observations from a re-analysis of the deposited data

Results flagged for a closer look

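For 6 of the 9 genes the difference between the genotypes was itself different in the 2 tissues by limma's interaction test, given here as the log2 fold change in muscle minus that in heart. It was 2.657 for Thbs1, 1.666 for Postn, 0.7934 for Pdgfra, 0.7628 for Fn1, 0.7076 for Sparc and 0.5458 for Dcn. The median of this difference over the 4051 bright genes was 0.79. With the arrays of each tissue quantile normalized, the value was 1.86 for Thbs1 (adjusted p = 0.00111), which still passed, and 0.82 for Postn (adjusted p = 0.0787), -0.0077 for Pdgfra, -0.08 for Fn1, 0.02 for Sparc and -0.11 for Dcn, which did not.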

How the results depend on the processing

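Of 1170 recomputed values of the 9 genes, 1035 kept direction and side of the threshold, 68 lost and 23 gained the threshold, and 44 reversed, none in muscle. Scaling moved most. In heart, Dcn became 0.13 with median centring, 0.43 with upper-quartile scaling, 0.16 with either quantile normalization and 0.26 with cyclic loess, and Pdgfra 0.044, 0.32, 0.30 and 0.31. The lower genes in heart were then 5 under each of these 5 scalings, and the higher ones 2 with either quantile normalization and 3 with upper-quartile scaling or cyclic loess. The difference between tissues was, with cyclic loess, quantile normalization over 12 arrays and within tissues, -0.198, -0.096 and -0.106 for Dcn, -0.055, -0.046 and -0.045 for Eln, -0.044, -0.099 and -0.084 for Fn1, -0.56, -0.55 and -0.57 for Lum and -4.4e-05, -0.013 and -0.0077 for Pdgfra, and for Sparc -0.0501 and -0.064 with the first pair. With upper-quartile scaling it was -0.23 for Dcn, -0.036 for Eln, -0.54 for Lum and -0.071 for Sparc, with median centring -0.149 for Lum, and with 1 array left out it ranged from -0.0055 (without Tk2-/- muscle replicate 1) to 0.39 for Lum. Genes past the threshold for this difference were 2 (1 higher and 1 lower in muscle) with loess and both quantile normalizations and 3 (2 and 1) with upper-quartile scaling, and with median centring 1 was lower.

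Between Tk2-/- tissues, 2 genes were higher in muscle and 4 lower with median centring, upper-quartile scaling and quantile normalization over 12 arrays, with no share over all genes at hand for these scalings. Dcn was then -0.39, -0.54 and -0.36, Pdgfra -0.092 with upper-quartile scaling and -0.147 with quantile normalization, and Sparc -0.069 with upper-quartile scaling. Between Tk2+/+ tissues, Fn1 was -0.0094 with array weights, -0.063 with median centring and -0.091 (without Tk2+/+ heart replicate 2) to 0.147 with 1 array left out, and Sparc 0.081 with quantile normalization and 0.0026 with upper-quartile scaling.

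In muscle, 4 genes were higher with median centring (Thbs2 and Dcn joined) and 1 with an offset of 1. Once adjusted by Benjamini-Hochberg, the methods' t-test called 1 gene in muscle, Postn, lower, and 0 higher. In heart it then called Fn1, Postn, Sparc, Dcn, Lum, Thbs1 and Pdgfra lower and 0 higher. At its own thresholds (a fold of 2, unadjusted p) it called Fn1, Postn and Lum lower and 1, Thbs1, higher in muscle. In heart it called 5 lower (Fn1, Postn, Sparc, Lum and Thbs1) and 0 higher. Leaving out 1 array gave 4 to 7 genes past the threshold in muscle (3 to 4 lower, 1 to 3 higher) and 8 to 9 in heart, 5 to 7 for the difference between tissues, 4 to 6 between Tk2+/+ tissues and 6 to 7 between Tk2-/- tissues (5 higher and 1 to 2 lower in muscle). The replicate block, paired by number, changed 1 call of 45, the tissue difference of Fn1 (0.7628, adjusted p = 0.0682). A replicate block of muscle and heart arrays by number, chosen after seeing the data, gave 7 genes for the difference between tissues (Eln joined), 5 between Tk2+/+ tissues and 7 between Tk2-/- tissues. The causes were not tested.

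With 3 arrays a group, small changes can be missed, and a gene that did not pass is not shown to be unaltered. Dcn passed in muscle with array weights (0.28, adjusted p = 0.0428) and without Tk2+/+ muscle replicate 2 (0.35, 0.03), Thbs2 with each tissue fitted alone (0.0476) and without Tk2+/+ heart replicate 2 (0.0373). Pdgfra passed between Tk2+/+ tissues with array weights (0.0102), median centring (0.00793), an offset of 64 (0.0367) and the mean of probe sets (0.0496), and without Tk2+/+ muscle or heart replicate 2 (0.0468 and 0.0127). The 9 genes had mean signals above 256, and the dim filter (12775 genes kept) changed none of their calls.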

Other observations

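Arrays of the same group differed in the same sense over many of the 9 genes. In Tk2-/- muscle, replicate 1 was the highest array for 6 of the 9 genes and replicate 3 the lowest for 8, and their summed fibroblast marker signals were 9045 and 7315. In Tk2+/+ heart, replicate 2 was the lowest for 8 genes, with the lowest fibroblast marker sum of that group (8946 against 11773 and 11848). In Tk2-/- heart, replicate 3 was the lowest for 7 genes, again with the lowest marker sum of the group (3225 against 3803 and 4130). Each of these lowest arrays also had the lowest mean signal of its group over the whole table. Means were 224.9 for Tk2-/- muscle replicate 3 (245.0 and 245.9 in the others), 227.4 for Tk2+/+ heart replicate 2 (242.6 and 238.6) and 146.8 for Tk2-/- heart replicate 3 (153.8 and 168.4). The part of array brightness or cell content in this pattern was not tested, and shares over all genes were not counted. Fmod, another small leucine-rich proteoglycan, read 1014 in Tk2-/- muscle replicate 1 against 391 and 369.9. Coefficients of variation over 3 arrays ranged from 1.1% for Dcn in Tk2-/- heart to 51.6% for Eln in Tk2+/+ heart.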
